A study of Rattus norvegicus with 9 samples.

Results

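Nlrp3 encodes the sensor protein of the NLRP3 inflammasome, and its RNA was followed here in whole rat lung across 3 exposure groups. The gene was taken as the Agilent catalogue probe A_44_P281733, which the array files annotate to the RefSeq transcript NM_001191642, the curated mRNA of rat Nlrp3. It is 1 probe of the 38804 on the array that are not control probes, and 1 of the 29 protein-coding genes that the 50 catalogue probes could be matched to. The array is a custom 1-colour Agilent design, on which every catalogue probe is printed as 10 spots, so each array gave 10 readings of Nlrp3.

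The labels give the samples as 9 male Wistar rats in 3 groups of 3, called biological replicates, with 1 array each. The files do not settle whether the 3 control arrays hold RNA of 3 rats or repeats of 1 sample. The rats were 6 to 8 weeks old, without a statement of the stage at which this age applied, and were randomised to 90 days of exposure. One group breathed cigarette smoke (CS) and another fine particulate matter (PM2.5), and the labels call each a model of chronic obstructive pulmonary disease (COPD). The control group inhaled NS, whose meaning is not given in the labels. The animals carried no allele or transgene named in the labels. Lungs of replicates 1, 2 and 3 were archived after 90, 91 and 92 days in both exposed groups, and after 90 days for all controls. Nothing else in the labels says how the animals were housed or paired. A p-value here weighs a difference against the spread between these arrays, an estimate that limma moderates with that of all probes tested. The whole lung was ground, so the RNA mixes all cell types of the organ. Of 56 marker genes listed for lung, immune and neuronal cell types, Map2 was the only one measured by a named probe, and the tissue label could not be checked against lung markers.

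NLRP3 is a cytosolic receptor of the innate immune system. When cells meet danger signals such as potassium efflux or particles that damage lysosomes, it assembles with the adaptor ASC (gene Pycard) and the protease caspase-1 (Casp1), which then matures the cytokines interleukin-1 beta and interleukin-18 and cuts gasdermin D to open pores in the membrane. Its transcription is classically raised by NF-kB in a preceding priming step, and in lung the gene is best known from macrophages and other myeloid cells. In the RefSeq annotation of the rat assembly GRCr8, Nlrp3 lies between the protein-coding genes Zfp496 and Or2b11 and has 12 transcripts, of which 1 is curated, 9 are predicted mRNAs and 2 are predicted non-coding RNAs. The position of the probe within these transcripts is not given in the sources used here, so the probe's signal was not assigned to single isoforms. The array header names an older rat build than this annotation, and no coordinates are therefore given. None of the 41 other inflammasome genes listed (among them Pycard, Casp1, Il1b, Il18, Gsdmd, Nek7 and P2rx7) had a named probe, so Nlrp3 is the single component of the pathway measured by name.

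The control arrays differed from the exposed arrays as a whole. The 75th percentile of the signal over all probes averaged 348 scanner units in the control group (SD 7.63, n = 3), 210 in the CS group (SD 13.2, n = 3) and 205 in the PM2.5 group (SD 55.7, n = 3). The slide of an array was inferred from the scan time in its file header, and arrays with the same scan time were taken as 1 slide. By this rule all 3 control arrays lay on 1 slide, which was scanned on a later day than the other 3 slides. In either comparison against control the group therefore cannot be told apart from the slide and its scan day. One slide held replicates 2 and 3 of CS and replicates 1 and 2 of PM2.5, and CS 1 and PM2.5 3 each had a slide without other arrays of the series.

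The Nlrp3 probe was detected on every array. All 10 spots were well above background on each of the 9 arrays, 0 were saturated, and 1 spot, on control 2, carried an outlier flag and was left out of the scaled levels. The mean background-subtracted signal of the 10 spots was 52.8, 53.0 and 51.5 scanner units on control 1, 2 and 3. On CS 1, 2 and 3 it was 40.6, 34.3 and 31.5. On PM2.5 1, 2 and 3 it was 17.7, 20.9 and 24.3. The groups did not overlap in this unscaled signal, with control highest and PM2.5 lowest. The control arrays were brighter as a whole, and the share of all probes that separate the groups in this way was not counted. In fits without scaling, 31% of the probes passed (limma adjusted p below 0.05) in PM2.5 minus control. In CS minus control 26.7% passed, and in CS minus PM2.5 2.89%. Nlrp3 passed only in PM2.5 minus control in these fits. The separation of Nlrp3 held at the level of single spots. The 30 control spots ranged from 46.6 to 60.1 with a median of 52.4, the 30 CS spots from 29.4 to 43.8 with a median of 33.5, and the 30 PM2.5 spots from 16.2 to 28.9 with a median of 20.7. At each of the 10 spot positions the 3 groups kept this order without overlap. Spots of 1 array share their RNA and are readings of 1 sample, not replicates of a condition.

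**Figure D1:**
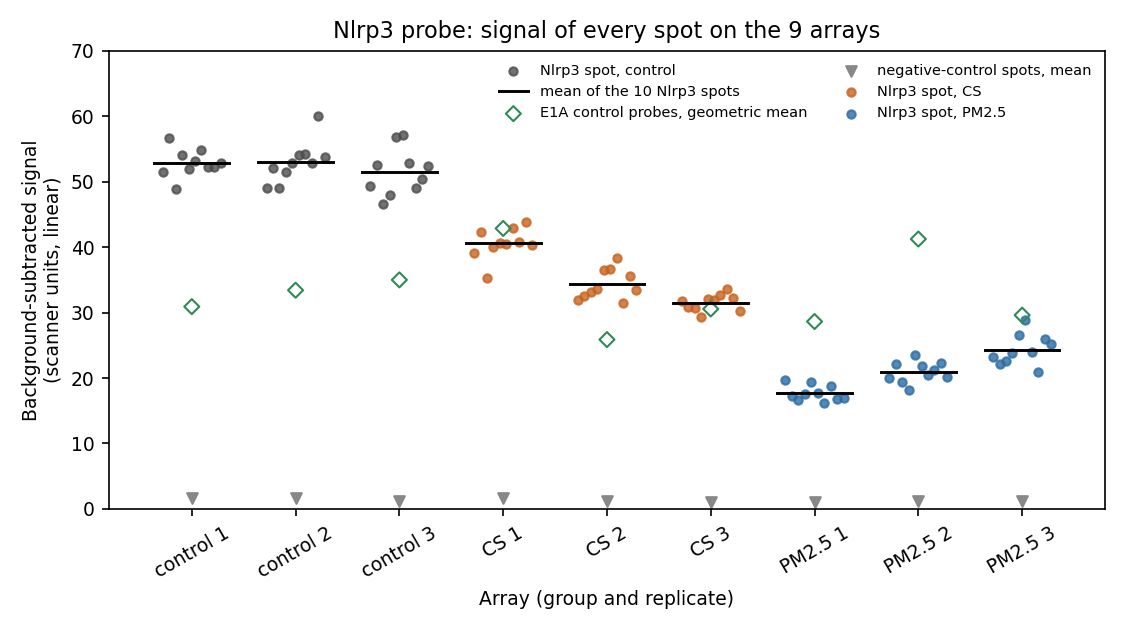
Background-subtracted signal (scanner units, linear axis) of the 10 Nlrp3 spots on each of the 9 arrays, with the mean of the 10 spots (black line), the geometric mean of the E1A control probes (open diamond) and the mean of the negative-control spots (triangle). Control spots lie at 46.6 to 60.1, CS spots at 29.4 to 43.8 and PM2.5 spots at 16.2 to 28.9, while the E1A probes have no such order.

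The mean signal of Nlrp3 on PM2.5 arrays was thus 40.0% of that on control arrays, while the 75th percentile of all probes on these arrays was 58.9% of control. On CS arrays Nlrp3 stood at 67.7% of control and the 75th percentile at 60.3%. Relative to the arrays' 75th percentile Nlrp3 was thus lower than control in PM2.5 and higher in CS. Relative to the median change of all probes without scaling it was lower in both. In PM2.5 it changed by −1.33 log2 units against a median of −0.29, and in CS by −0.56 against a median of −0.29. The comparisons against control therefore depend on how the arrays are put on a common scale. The local background around the Nlrp3 spots was close in the groups, at 13.0 ± 0.35 scanner units (SD, n = 3) on control, 12.3 ± 1.33 (SD, n = 3) on CS and 12.4 ± 0.98 (SD, n = 3) on PM2.5 arrays. The ratio of the median spot signal to this local background was 5.34, 5.45 and 5.31 on the control arrays. It was 5.47, 3.69 and 3.82 on CS 1, 2 and 3, and 2.90, 3.07 and 3.00 on PM2.5 1, 2 and 3. By this ratio CS 1 reached the control arrays, and the PM2.5 arrays stayed below all others.

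Control spots of 2 kinds were read on the same arrays. The negative-control spots, which are designed as hairpins that bind no transcript, had mean signals of 1.02 to 1.69 on the 9 arrays, and the Nlrp3 signal was 16.3 to 40.5 times as high. The 10 E1A control probes target an adenoviral spike-in RNA that the labels do not mention, and have no rat target. Their geometric mean signal was 33.1 ± 2.06 (SD, n = 3) on control, 33.1 ± 8.77 (SD, n = 3) on CS and 33.2 ± 7.01 (SD, n = 3) on PM2.5 arrays, so that the unscaled group means nearly coincided. Relative to the 75th percentile of each array, the scale of the tests below, these probes were 0.78 log2 units higher in PM2.5 and 0.70 higher in CS than in control. Nlrp3 was brighter than 10, 8 and 8 of the 10 E1A probes on control 1, 2 and 3, than 4, 7 and 4 on CS 1, 2 and 3, and than 1, 0 and 3 on PM2.5 1, 2 and 3. The Nlrp3 level minus the mean E1A level averaged 0.66 log2 units in control (SD 0.11, n = 3), 0.12 in CS (SD 0.25, n = 3) and −0.66 in PM2.5 (SD 0.35, n = 3). The 3 groups did not overlap on this scale either, and the share of all probes for which this holds was not counted. Whether the E1A signal is unspecific binding or added spike-in RNA was not tested. How much of the Nlrp3 signal is unspecific binding was not tested either.

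For the tests, the 75th percentile of each array was subtracted from its log2 signals. The Nlrp3 level was then −2.73, −2.76 and −2.72 log2 units on control 1, 2 and 3. It was −2.43, −2.66 and −2.63 on CS 1, 2 and 3, and −3.24, −3.11 and −3.47 on PM2.5 1, 2 and 3. All PM2.5 arrays were below all others, and the CS arrays were slightly above the control arrays without overlap. The group means were −2.74 ± 0.02 (SD, n = 3) for control, −2.57 ± 0.12 (SD, n = 3) for CS and −3.27 ± 0.18 (SD, n = 3) for PM2.5. The control arrays varied least. Their SD of 0.02 is about the standard error that the spots of 1 array give, 0.02 to 0.03, while the SDs of the exposed groups exceed theirs of 0.02 to 0.04. On this scale the control arrays thus differed for Nlrp3 by about as much as readings of 1 array do. Their SD was larger on other scales, at 0.11 relative to the E1A probes and 0.05 after the quantile scaling described below. The spread of Nlrp3 therefore does not settle whether the control arrays are 1 sample. If they are, n for control is 1 and the SEs below are too small. The comparisons against control are therefore also given with the control arrays as a single sample.

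After quantile scaling, which gives every array the same distribution of signals, the levels were 5.59, 5.52 and 5.50 log2 units on the control arrays. They were 5.13, 5.36 and 5.15 on CS 1, 2 and 3, and 4.45, 4.25 and 4.53 on PM2.5 1, 2 and 3. PM2.5 was again lowest, but CS now lay between PM2.5 and control. The authors' deposited log2 values gave nearly the same picture, with 5.59, 5.53 and 5.50 for control, 5.13, 5.36 and 5.15 for CS and 4.45, 4.25 and 4.53 for PM2.5. Expressed as a rank, Nlrp3 was brighter than 39.2% of all probes in control (SD 1.1, n = 3), 32.1% in CS (SD 2.75, n = 3) and 17.0% in PM2.5 (SD 2.28, n = 3). The place of PM2.5 as the lowest group held on each scale, and the order of CS and control did not.

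**Figure D2:**
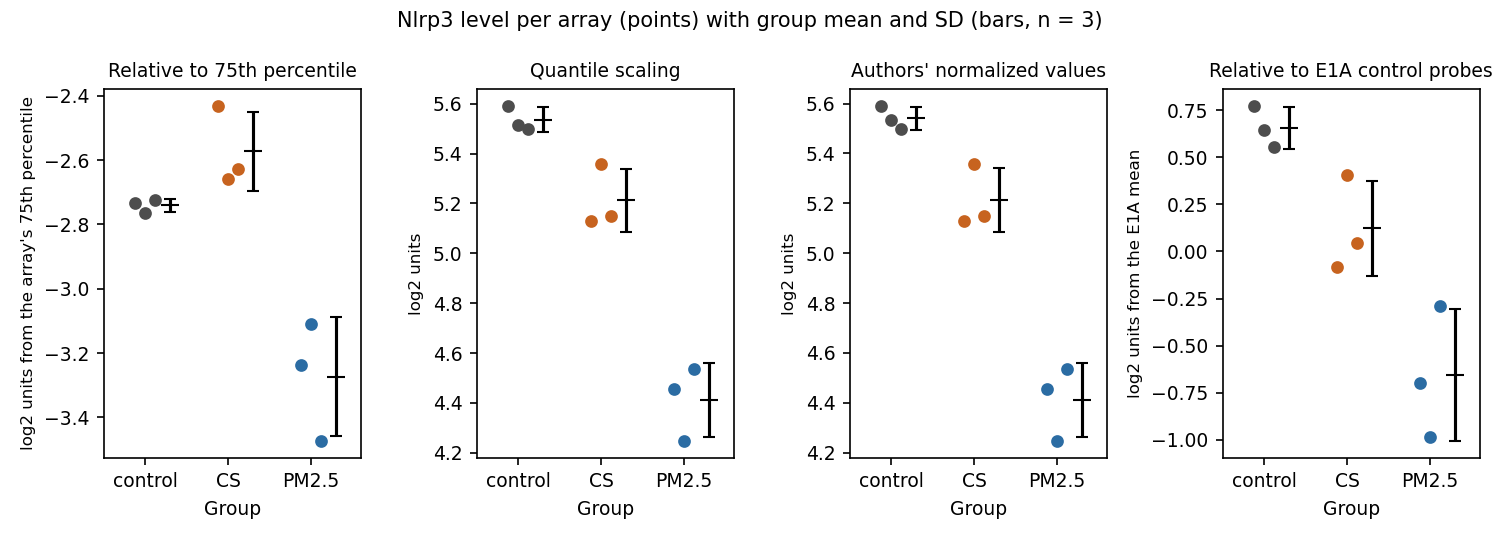
Nlrp3 level of each array (points) with the group mean and SD (bars, n = 3) on 4 scales, in log2 units: relative to the array's 75th percentile, after quantile scaling, in the authors' deposited values, and relative to the mean of the E1A control probes. PM2.5 is lowest in each panel, and CS lies above control in the first panel and below it in the other 3.

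The first comparison asked how Nlrp3 RNA in lungs exposed to PM2.5 stood against that of the control group. Nlrp3 fell in PM2.5 by 0.53 log2 units (SE 0.13, 95% interval −0.82 to −0.24, limma adjusted p = 0.00878), a level 30.9% lower (95% interval 15.5% to 43.5%) and lower on 3 of 3 arrays than on any control array. In whole lung, fewer cells that express the gene and less RNA per cell cannot be told apart. The call stands against a background in which 56.8% of the 37643 probes tested passed the same threshold, an adjusted p below 0.05, with 47.1% higher and 9.78% lower in PM2.5. A call in either direction was therefore common, and a fall was the less common direction on this scale. The median change over all probes was 0.51 log2 units, and 7.45% of the probes had a lower change than Nlrp3. After quantile scaling the median change was 0.07, 29.7% of the probes passed, with 14.5% higher and 15.2% lower, and the fall of Nlrp3 was larger, at 1.12 log2 units (SE 0.11, limma adjusted p = 9.3e-05), or 54.1% (95% interval 45.3% to 61.4%). On that scale 3.27% of the probes had a lower change. Among the other 28 named genes, 8 had a lower PM2.5 change than Nlrp3 on the first scale and 2 after quantile scaling. With slide as a random block Nlrp3 did not pass (−0.51 log2 units, limma adjusted p = 0.0716), nor did it when the mean of the 3 control arrays stood as a single sample (−0.53, limma adjusted p = 0.169), though it passed in the latter fit after quantile scaling (−1.12, limma adjusted p = 0.019). With the single control sample 3.78% of all probes passed on the first scale and 6.07% after quantile scaling.

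The second comparison asked the same of CS-exposed lungs. The Nlrp3 difference from control was 0.17 log2 units (SE 0.13, 95% interval −0.12 to 0.46, limma adjusted p = 0.28), which did not pass, although the 3 CS arrays lay above the 3 control arrays. On this scale 47.2% of the probes passed, 38.7% higher and 8.42% lower in CS, and the median change of all probes was 0.45. After quantile scaling the sign turned, to −0.32 (SE 0.11, 95% interval −0.57 to −0.07, limma adjusted p = 0.0641), again short of the threshold, and the 3 CS arrays then lay below the 3 control arrays. There 24.6% of the probes passed, with 11.8% higher and 12.8% lower, and the median change was 0.06. The authors' deposited values gave −0.33 (limma adjusted p = 0.0601). With the control arrays as a single sample the value was 0.17 (limma adjusted p = 0.61), and 0.441% of all probes passed. The direction of Nlrp3 in CS lungs relative to control is thus not settled by these arrays, and the intervals on the 2 scales reach from 0.57 log2 units lower to 0.46 higher.

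**Figure D3:**
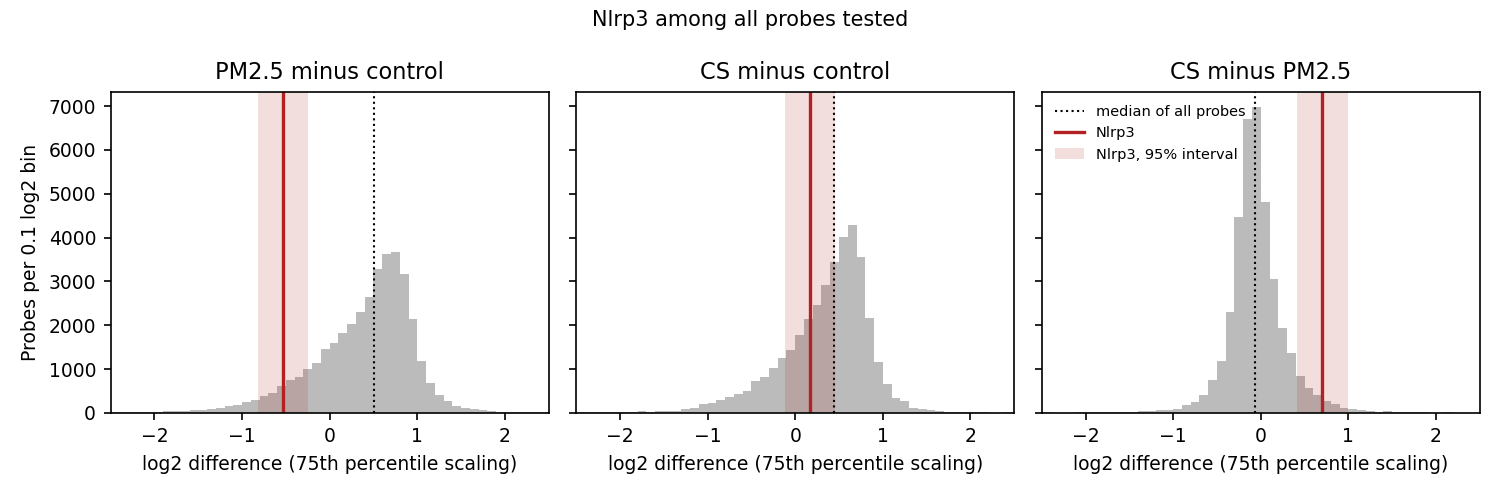
Number of probes (bars, bins of 0.1 log2 units) by log2 difference in the 3 comparisons, on the 75th percentile scale, with the median of all probes (dotted line) and Nlrp3 (red line, 95% interval shaded). Nlrp3 lies below the median of all probes in both comparisons against control (−0.53 against 0.51 in PM2.5, 0.17 against 0.45 in CS) and above it in CS minus PM2.5 (0.70 against −0.07).

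The third comparison set CS against PM2.5 lungs. Since both exposures are measured against the same control arrays, it also tests whether their effects on Nlrp3 differed. In CS lungs Nlrp3 exceeded its level in PM2.5 lungs by 0.70 log2 units (SE 0.13, 95% interval 0.41 to 0.99, limma adjusted p = 0.0133), a 1.63-fold difference (95% interval 1.33 to 1.99), and each CS array was above each PM2.5 array. All PM2.5 spots were well above the local background, but on these arrays Nlrp3 was dimmer than the mean of the E1A probes. On CS 1, 2 and 3 its level minus the E1A mean was −0.08, 0.40 and 0.04 log2 units. The fold thus compares signals and may differ from that of the transcript. In this comparison 5.88% of the probes passed, 3.13% higher and 2.75% lower in CS, and the median difference was −0.07. Of all probes 97.4% had a smaller signed difference than Nlrp3, and 2.82% had a smaller p. After quantile scaling the difference was 0.80 (SE 0.11, limma adjusted p = 0.002), where 8.74% of the probes passed, with 5.18% higher and 3.56% lower. The mean 75th percentile on CS arrays was 102% of that on PM2.5 arrays, but single arrays differed. It was 219, 216 and 195 scanner units on CS 1, 2 and 3, and 166, 180 and 269 on PM2.5 1, 2 and 3. Between the 75th percentile scale and quantile scaling, this difference moved less than those against control.

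Among the 29 named genes Nlrp3 had the largest signed difference between CS and PM2.5 on both scales. It was followed on the first scale by the phosphatase subunit gene Ppp2r2b (0.69), the ribonuclease P subunit gene Pop7 (0.67) and Ptk2b, which encodes the tyrosine kinase PYK2 (0.65). These gaps are smaller than the SE of 0.13, so no order among the 4 genes can be read. Of the other 28 genes, 2 (Pop7 and Ptk2b) were called higher in CS and 1 (Enpp1) was called lower. The remaining 25 did not pass, among them Ppp2r2b (limma adjusted p = 0.0571). Of all probes tested, 3.13% were called higher and 2.75% lower. The median difference of the 28 was −0.004, with a range from −0.50 to 0.69.

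Within the shared slide, with 2 arrays per exposure, Nlrp3 was 0.53 log2 units higher in CS. It passed with slide as a fixed block (0.53, limma adjusted p = 0.0457), a fit in which the control arrays add to the estimate of the spread, and not when the 4 arrays of that slide were fitted alone (limma adjusted p = 0.224). It also did not pass when the fit held only the 6 exposed arrays (0.70, limma adjusted p = 0.109), where its SE was 0.17 in place of the 0.13 obtained with the control arrays in the fit.

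The named genes whose levels over the 9 arrays ran most like those of Nlrp3 were found by Pearson correlation, given as a description. On the 75th percentile scale these were Ptk2b (r = 0.88), Med16, a subunit of the Mediator complex (r = 0.78), and Pop7 (r = 0.75). After quantile scaling they were Ptk2b (r = 0.94), Ppp2r2b (r = 0.93) and Nat1, an arylamine N-acetyltransferase (r = 0.87). Ptk2b was thus the most similar gene on both scales, and the other places changed with the scale. Such values are not rare on these arrays, whose probes share the samples and the scaling. On the first scale 1.32% of the other 37642 probes tested correlated with Nlrp3 at least as strongly as Ptk2b, and 0.983% after quantile scaling.

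Ptk2b had levels of 0.13, 0.12 and 0.07 log2 units on control 1, 2 and 3. On CS 1, 2 and 3 it was at 0.12, 0.14 and −0.15. On PM2.5 1, 2 and 3 it was at −0.73, −0.52 and −0.58. The PM2.5 arrays were lowest, as for Nlrp3, and the CS and control arrays of Ptk2b overlapped. Ptk2b, Med16, Pop7, Ppp2r2b and Nat1 were picked for their likeness to Nlrp3 on these same arrays. Changes similar to those of Nlrp3 follow in part from that choice and are no independent evidence. The change in PM2.5 against control was −0.72 for Ptk2b (limma adjusted p = 0.002) and −0.53 for Med16 (limma adjusted p = 0.036), and both fell. Pop7 differed in form, since its PM2.5 value of −0.07 did not pass while it rose by 0.59 in CS (limma adjusted p = 0.00406). Ppp2r2b fell in both exposures, by 1.23 in PM2.5 (limma adjusted p = 0.00095) and by 0.54 in CS (limma adjusted p = 0.0353). Nat1 fell in PM2.5 by 0.58 (limma adjusted p = 0.0104) and did not pass in CS (−0.32, limma adjusted p = 0.0934).

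**Figure D4:**
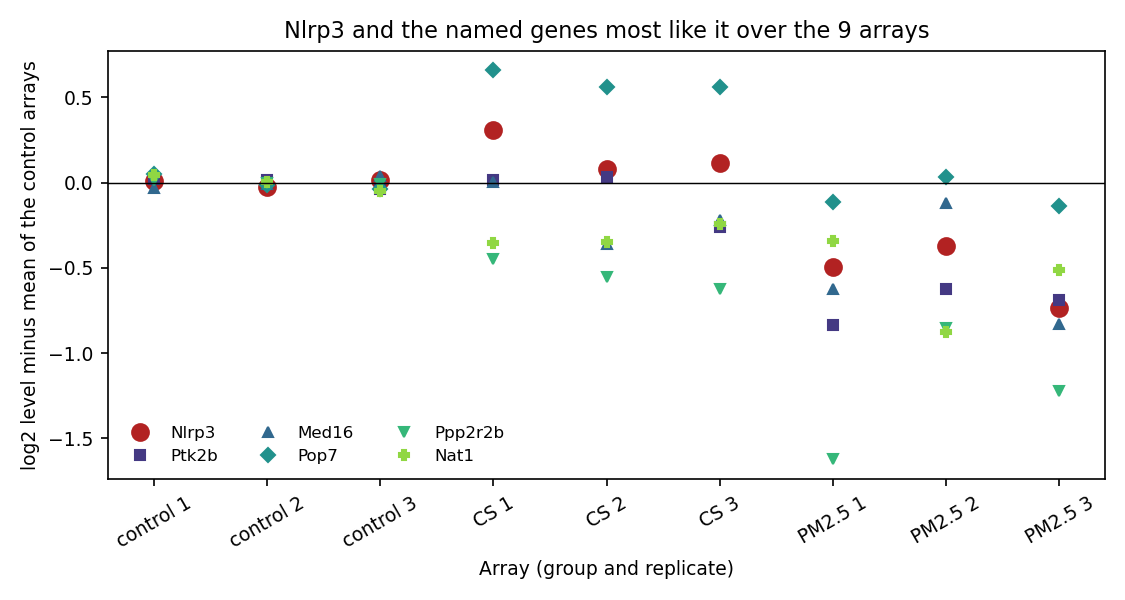
Level of Nlrp3 (red circles) and of the 5 named genes most like it on either scale, for each of the 9 arrays, in log2 units relative to the 75th percentile and minus the mean of each gene's control arrays. Nlrp3 and Ptk2b are near 0 on control arrays and lowest on PM2.5 arrays, while Pop7 is raised on the CS arrays.

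Across the other ways of processing, PM2.5 remained below control and below CS in each of the 21 settings run for these comparisons, not counting the fits that left out 1 array, with log2 changes of −1.33 to −0.18 against control and differences of 0.25 to 0.80 between CS and PM2.5. In 3 of the 21 settings the fall in PM2.5 did not pass, and in 5 of 21 the difference between the exposures did not. The CS difference from control ran from −0.56 to 0.24 and was negative in 7 of 21 settings. With any 1 of the 9 arrays omitted, the fall in PM2.5 and the difference between CS and PM2.5 still passed.

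**Figure D5:**
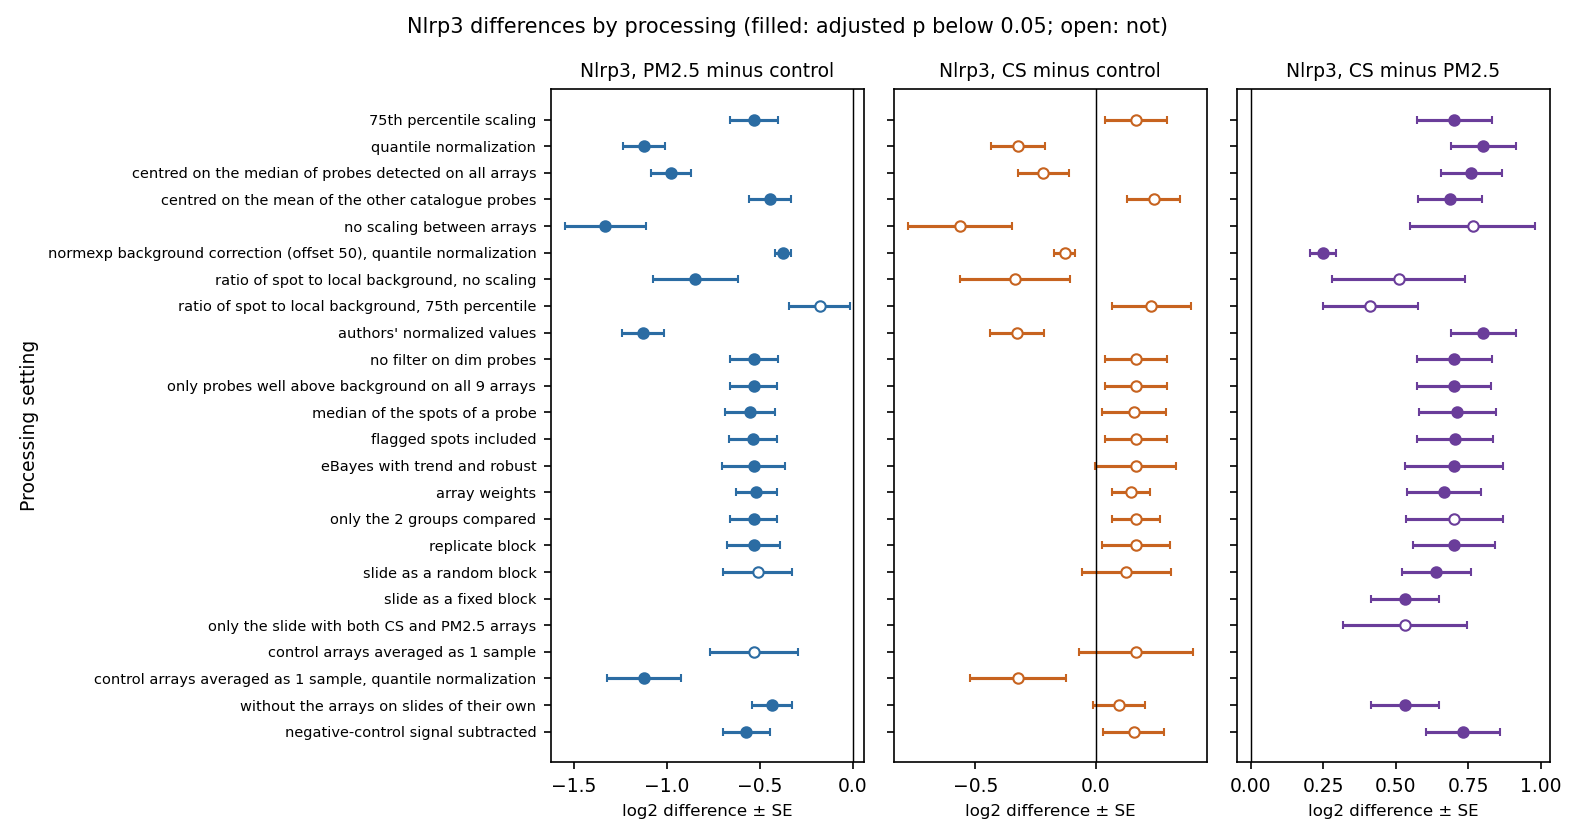
Log2 difference of Nlrp3 ± SE in the 3 comparisons (panels) under each processing setting (rows), filled where the limma adjusted p was below 0.05 and open where it was not. PM2.5 minus control is below 0 and CS minus PM2.5 above 0 throughout, while CS minus control lies on both sides of 0.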

How the data were processed

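The deposited scanner files hold intensity values on a linear scale, read with Agilent Feature Extraction 11.0.1.1 and background-subtracted within each array, per the file headers, and other values, flags of 0 or 1 per spot. RNA (10 µg) was labelled with the Agilent Quick Amp kit, per the labels' protocols. The authors' deposited series table holds log2 values whose columns have nearly equal distributions; its normalization is not given in the sources used here.

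From these, unflagged spots of a probe were averaged as log2 of the processed signal and set relative to the array's 75th percentile. Probes entered the test if their signal was well above background throughout at least 1 group and each array had an unflagged spot. By these rules 943 probes were removed as dim and 218 for want of an unflagged spot. The remaining 37643 were tested with limma 3.58.1 under R 4.3.3 (all 9 arrays, 1 mean per group, two-sided, Benjamini-Hochberg adjustment, threshold 0.05). Names came from a RefSeq table: 30 of 50 catalogue probes matched, and 0 of the other probes. Named genes are Nlrp3, measured inflammasome genes (41 listed, 0 measured) and, on each of 2 scales, the 3 genes correlating most with it; others stand beside them because a comparison turned on their values. No depth applies to arrays; their number, 3 per group, limits the precision. The gene, lists and settings were chosen with earlier results of these data known. Deviations of same-numbered arrays of different groups correlated at −0.45 to 0.18, and 1 of 9 pairs exceeded 0.1. For differently numbered arrays the range was −0.61 to 0.59, and 6 of 18 pairs exceeded 0.1. Replicate numbers thus gave no sign of pairing. Deviations within a group of 3 depend on each other, so these values cannot exclude pairing.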

Additional observations from a re-analysis of the deposited data

Results flagged for a closer look

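The difference between the exposures drew attention because the effects of CS and PM2.5 on Nlrp3 against the same control arrays differed by the test of the difference itself. Nlrp3 was higher in CS than in PM2.5 by 0.70 log2 units (SE 0.13, limma adjusted p = 0.0133, higher on 3 of 3 CS arrays than on any PM2.5 array). Its signal on PM2.5 arrays, 17.7 to 24.3 scanner units, was below the mean of the E1A control probes on each of those arrays, 28.6 to 41.2. On CS 1 the Nlrp3 signal of 40.6 was also below the E1A mean of 42.9, and on CS 2 and CS 3 it was above. Groups of 3 arrays are too small for a check of single outlying arrays.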

How the results depend on the processing

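The fall of Nlrp3 in PM2.5 kept its direction under all alternatives run. It no longer passed for the ratio of spot to local background on the 75th percentile scale (−0.18), with the control arrays averaged as 1 sample (−0.53) and with a random block for slide (−0.51). The difference between CS and PM2.5 kept its direction and did not pass without scaling between arrays (0.76), for the ratio of spot to local background without (0.51) or with scaling (0.41), with only the 2 groups compared (0.70) and on the shared slide alone (0.53). CS minus control turned negative with quantile normalization (−0.32), centring on the median (−0.22), no scaling (−0.56), normexp with an offset of 50 (−0.13), the unscaled ratio to local background (−0.34), the authors' values (−0.33) and averaged control arrays with quantile normalization (−0.32), passing in none. The cause was not tested. Leaving out 1 array gave −0.61 to −0.43 for PM2.5 minus control, 0.10 to 0.21 for CS minus control and 0.60 to 0.78 for CS minus PM2.5. The replicate number as a block changed no call (adjusted p = 0.0233 for PM2.5 minus control, 0.337 for CS minus control, 0.0487 for CS minus PM2.5) and lowered the share of probes called in CS minus PM2.5 from 5.88% to 3.20%. That share was 56.8% in PM2.5 minus control, 47.2% in CS minus control and 5.88% in CS minus PM2.5, and ran from 3.78% to 71.2%, 0.441% to 75.6% and 1.02% to 9.91% over the alternatives. Without control 1 it was 35.2%, 21.3% and 3.58%, without control 2 37.3%, 22.8% and 3.54%, without control 3 42.5%, 29.2% and 3.70%, and without CS 1 60.6%, 29.8% and 3.74%. Without CS 3 it was 27.5% in CS minus control, and without PM2.5 3 3.90% in CS minus PM2.5. Omitting the arrays on slides of their own, or subtracting the negative-control signal, both added after seeing the data, changed no call. For CS minus PM2.5 this omission gave the same result as slide as a fixed block (0.53, limma adjusted p = 0.0457). It is therefore no further check of that difference, although both count among the settings.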

Other observations

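At 2 of the 10 positions the Nlrp3 spots deviated from their array's mean with the same sign on all arrays. The third spot in array order was dimmer than its array's mean on 9 of 9 arrays, by 0.10 log2 units on average, and the sixth was brighter on 9 of 9, by 0.07. The size of both deviations varied between arrays, and the other 8 positions lay above the mean on some arrays and below it on others. The SD between spots of 1 array was 0.06 to 0.14 log2 units, with the highest value on PM2.5 3.

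Enpp1, whose enzyme makes pyrophosphate from ATP, and Napepld, whose enzyme releases N-acylethanolamines, ran most opposite to Nlrp3 and were chosen after their values were seen. Over the 9 arrays their Pearson correlation with Nlrp3 was −0.64 and −0.39 on the 75th percentile scale and −0.97 and −0.96 after quantile scaling. In PM2.5 against control they changed by 0.93 and 1.07 log2 units, where Nlrp3 changed by −0.53 and the median of all probes by 0.51. The E1A control probes, without a rat target, rose by 0.78 on this scale. Napepld was dimmer than their mean in control (−3.92 against −3.40), CS (−3.24 against −2.70) and PM2.5 (−2.85 against −2.62). After quantile scaling the changes were 0.90 and 0.44 for Enpp1 and Napepld, −1.12 for Nlrp3 and 0.07 for the median. The arrays share their scaling, and the correlations are a description over 3 groups, not a test.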
